A study of Zea mays with 18 samples.

Results

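The genes described here lie on chromosome 3 of maize (*Zea mays*) between 140 and 210 Mb of the Zm-B73-REFERENCE-NAM-5.0 assembly, a segment that holds *ZmCCD8* (Zm00001eb153000, chromosome 3, 202178668 to 202182189, minus strand). Members are annotated genes whose start lies in the segment and whose FPKM, a fragment count scaled by gene length and per library, was 1 or more in at least 3 of the 18 libraries. This gave 993 genes of the 27530 features that passed the same filter, and of the 1508 annotated genes of the segment. The segment was chosen by its crowding of differences between genotypes in these same libraries, so its counts of genes that differ between genotypes are given as a description, with no test, and nothing is read from them. The treatment responses did not enter that choice. By the filter, 16 members entered only through *zmccd8* libraries, 42 only through WT libraries and 935 through a value of 1 FPKM or more in both. At the filter, the third highest value of Zm00001eb151760 was 1.01 FPKM, just inside, and that of Zm00001eb149450 was 0.999 FPKM, just outside.

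RNA was measured in whole roots of *zmccd8* plants, whose *ZmCCD8* gene, in the B73 background, is interrupted by a Ds transposon in the third of its exons, and of WT plants, the inbred line B73. Both were grown for 4 weeks in vermiculite under control conditions (CT, complete nutrient solution), nitrogen deficiency (0N, the same solution with 1 mM KNO3 exchanged for KCl) or water stress (WS, no irrigation after the day of transplanting). Each of the 6 groups had 3 biological replicates, each a pool of several plants, and the mutant is represented by 1 insertion line. The rebuilt reads summed to between 30104083 and 43429912 per library. Genes described as Casparian strip membrane proteins, nicotianamine synthases and high-affinity nitrate transporters of the NRT2 type, taken as root markers, summed to between 138 and 1590 FPKM, with 8 of the 35 listed at 0 in every library. The leaf markers (the Rubisco small subunit, phosphoenolpyruvate carboxylase of the C4 type and pyruvate, phosphate dikinase) summed to between 6.07 and 49.3 FPKM, with 5 of the 13 listed at 0. In such bulk samples fewer cells of a type and less RNA per cell cannot be told apart.

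*ZmCCD8* encodes carotenoid cleavage dioxygenase 8, a plastid enzyme that acts after carotenoid isomerisation and a first cleavage to make carlactone, the precursor of strigolactones. Strigolactones are hormones that restrain shoot branching, shape root growth and are released from roots, where they promote symbiosis with mycorrhizal fungi, and their synthesis is known to rise when phosphate or nitrogen is short. The other genes of the segment share only their place on the chromosome, and they include transcription factors, transporters, kinases and metabolic enzymes. The gene that defines the mutant is fixed by its identifier and by the primer pair that the study lists for its transcript, shown here because *ZmCCD8* is the point from which all distances are measured. Both are 20 bases long and are written 5′ to 3′.
ZmCCD8 forward: agaaaggtgtctctgctgct
ZmCCD8 reverse: ctatgggctcgctcacatga

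Reads were counted over *ZmCCD8* in both genotypes. Its FPKM in *zmccd8* roots was 16.6, 5.63 and 8.22 under CT, 17.6, 9.47 and 19.2 under 0N, and 27.4, 24.2 and 18.1 under WS. In WT roots it was 5.80, 8.76 and 4.16 under CT, 70.9, 64.1 and 47.8 under 0N, and 10.7, 9.22 and 8.85 under WS. The genotypes overlapped under CT, all 3 *zmccd8* values lay below WT under 0N, and all 3 lay above WT under WS. It was the only member called in opposite directions between genotypes in different conditions, where a call needs both a log2 difference of at least 1 in either direction on the log2(FPKM + 1) scale and an adjusted p no higher than 0.05. With 1 library left out the call under 0N was kept in 3 of 6 fits and that under WS in 1 of 6. Values are sums over the whole gene, so the side of the insertion on which the reads lie is not known. In WT the rise under 0N against CT was 3.13 on the log2 scale (SE 0.26, adjusted p = 0.00482 by limma and the Benjamini-Hochberg method) and the call held in 6 of 6 fits that left a library out. In *zmccd8* the same difference was 0.62 (SE 0.41, adjusted p = 0.286), and the interaction of genotype with 0N, −2.50, had an adjusted p of 0.161. Under WS against CT the gene rose in *zmccd8* by 1.22 (SE 0.35, adjusted p = 0.0318), a call kept in 2 of 6 fits with 1 library left out, and in WT the difference was 0.59 (SE 0.24, adjusted p = 0.0973).

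**Figure D1:**
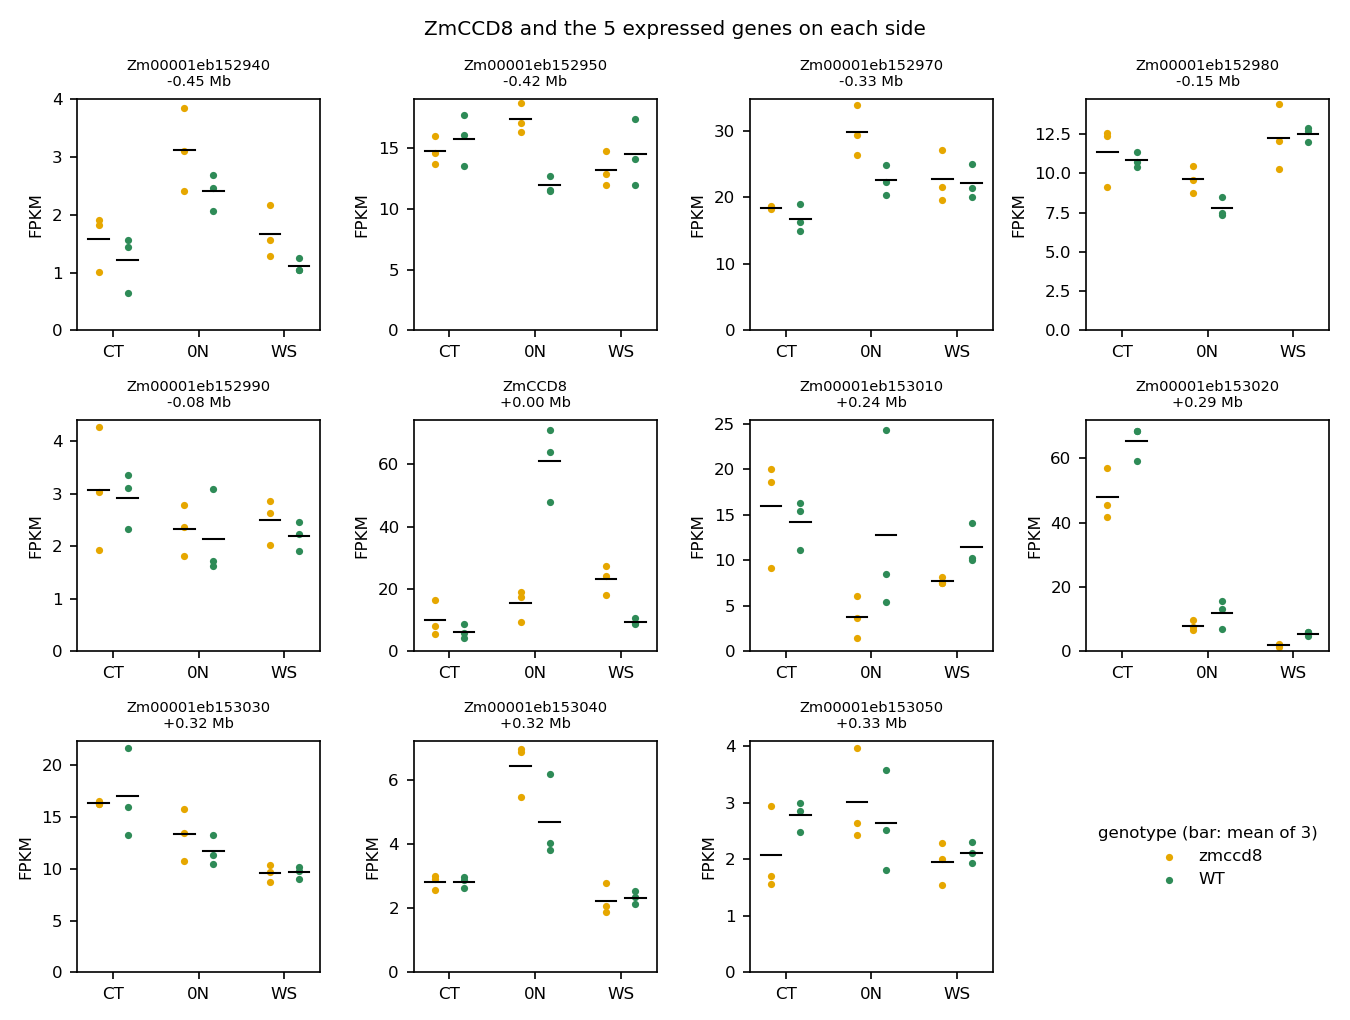
FPKM (vertical axes, each from 0) of *ZmCCD8* and of the 5 expressed genes nearest on each side, in *zmccd8* (left, yellow) and WT (right, green) libraries under CT, 0N and WS, with bars at the mean of 3 libraries. *ZmCCD8* has the widest gap of the 11 genes between genotypes under 0N, and Zm00001eb153020 falls under 0N and WS in both genotypes.

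Of the 10 nearest members, 5 on each side and all within 0.45 Mb, 9 were called in no condition. On the lower side these are an auxin response factor 3, which in Arabidopsis links auxin to organ patterning (Zm00001eb152940), a reticulon-4-interacting protein (Zm00001eb152950), a zinc finger protein (Zm00001eb152970), NUP85 of the nuclear pore (Zm00001eb152980) and STT3A, the catalytic subunit of the oligosaccharyltransferase (Zm00001eb152990). On the upper side they are a mannan endo-1,4-beta-mannosidase (Zm00001eb153010), dihydroorotase of pyrimidine synthesis (Zm00001eb153030), a pentatricopeptide repeat protein (Zm00001eb153040) and a B′ subunit of protein phosphatase 2A (Zm00001eb153050). The exception was Zm00001eb153020, which has no description and was called lower in *zmccd8* under WS only, in 0 of 6 fits with 1 library left out. This gene fell under treatment in both genotypes, as its values show. In *zmccd8* it had 41.7, 45.4 and 57.1 FPKM under CT, 7.69, 6.68 and 9.71 under 0N, and 1.29, 2.04 and 2.40 under WS, and in WT 68.6, 59.1 and 68.6 under CT, 15.8, 6.83 and 13.2 under 0N, and 4.65, 5.98 and 5.93 under WS. Neither treatment overlapped with CT in either genotype. The log2 difference of WS from CT was −4.08 in *zmccd8* (SE 0.19, adjusted p = 2.85e-05) and −3.35 in WT (SE 0.13, adjusted p = 2.4e-05, limma).

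Over the whole segment, under CT 57 members were called lower and 25 higher in *zmccd8* than in WT, beside 0.400% lower and 0.436% higher of all 27530 features. Under 0N the counts were 95 lower and 26 higher (0.890% and 0.683% of all features), and under WS 59 lower and 26 higher (0.414% and 0.487%). At an unadjusted p under 0.05 there were 317, 426 and 372 members under CT, 0N and WS (31.9%, 42.9% and 37.5% of members), beside 7.38%, 26.8% and 13.5% of all features. The median log2 difference of all members was −0.05 under CT, −0.16 under 0N and −0.08 under WS, beside 0.00, −0.01 and −0.02 over all features. In all, 166 members were called in at least 1 condition and 827 in none. Single libraries moved these counts: with 1 left out in turn they ran from 43 to 56 under CT, from 55 to 142 under 0N and from 49 to 75 under WS, against 82, 121 and 85 with all. The change was over 1.5 times without any 1 library except *zmccd8* replicate 2 under CT and *zmccd8* replicate 3 under 0N, and under WS without WT replicate 1 or *zmccd8* replicate 1 or 2.

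A gene called in more than 1 condition was, with 1 exception, called in the same direction. CT and 0N shared 60 called members, all 60 in the same direction, CT and WS shared 52, all 52 in the same direction, and 0N and WS shared 56, of which 55 had the same direction, *ZmCCD8* being the exception. These shared members make up 60 of 82 calls under CT and of 121 under 0N, 52 of 82 under CT and of 85 under WS, and 56 of 121 under 0N and of 85 under WS. No library is shared between the 3 comparisons. Across the 993 members, Pearson's r of the log2 differences was 0.825 between CT and 0N, 0.859 between CT and WS and 0.812 between 0N and WS, beside 0.248, 0.359 and 0.242 over the 26537 other features. The segment was chosen by genotype differences in these same comparisons, so nothing is read from the gap between members and other features. Genes are not independent replicates, and these values describe the libraries only. In all 3 conditions 33 members were called lower and 13 higher (0.193% and 0.265% of all features). Among annotated genes on other chromosomes and scaffolds 1 was called lower and 6 higher in every condition. On chromosome 3 below 140 Mb 1 was called higher.

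**Figure D2:**
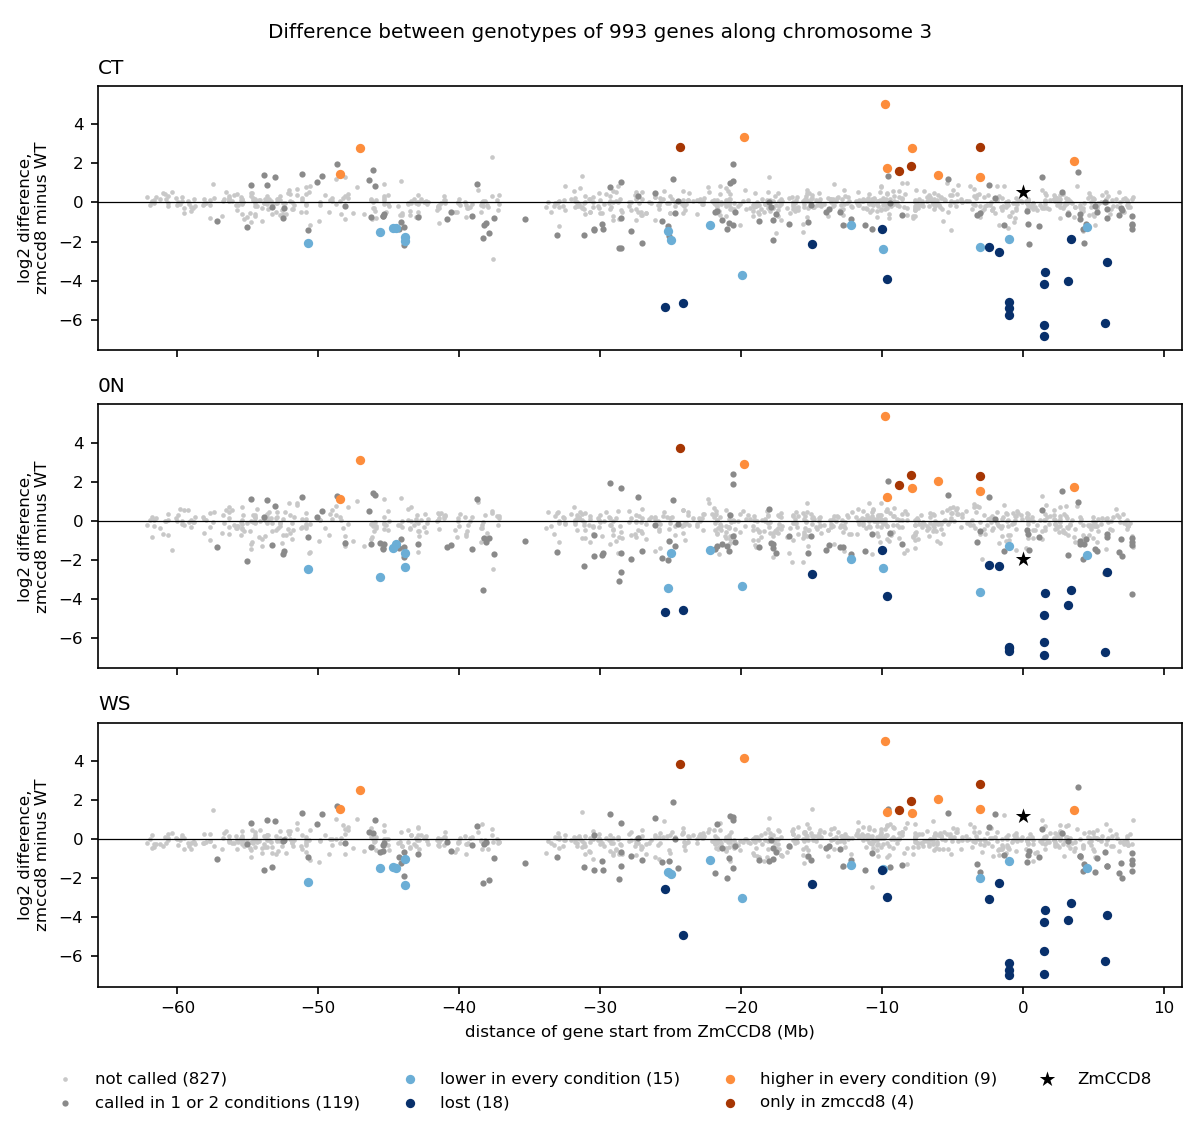
Log2 difference, *zmccd8* minus WT (vertical axis, log2(FPKM + 1) scale), of each of the 993 genes against the distance of its start from *ZmCCD8* in Mb, under CT, 0N and WS. The 18 lost genes (dark blue) lie from −25.38 to 5.99 Mb and keep their place in all 3 panels, and most genes (grey) lie near 0 along the whole segment.

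Along the chromosome the called genes were spread over the segment. Between 120 and 140 Mb none of the expressed annotated genes was called between genotypes. The first member called in any condition was Zm00001eb139570 (start 144988121) and the last was Zm00001eb155390 (start 209970980). Members called in every condition ran from Zm00001eb141060 (start 151478008) to Zm00001eb154850 (start 208163963). Above the segment 3 of the 95 genes between 210 and 215 Mb were called, all under WS, none of those between 215 and 230 Mb, and 1 of the 86 between 230 and 235 Mb, under 0N. In bins of 5 Mb the share of expressed genes called in any condition was 2.5% at 140 to 145 Mb, 29.7% at 155 to 160 Mb, 11.1% at 165 to 170 Mb and 27.5% at 205 to 210 Mb. Unlike this share, that of genes called for WS against CT in WT was 20.0%, 14.1%, 22.2% and 22.0% in the same bins. Among annotated genes, 16.7% of members were called between genotypes in any condition, against 1.62% on chromosome 3 below 140 Mb, 0.933% from 210 Mb on and 0.836% on other chromosomes.

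**Figure D3:**
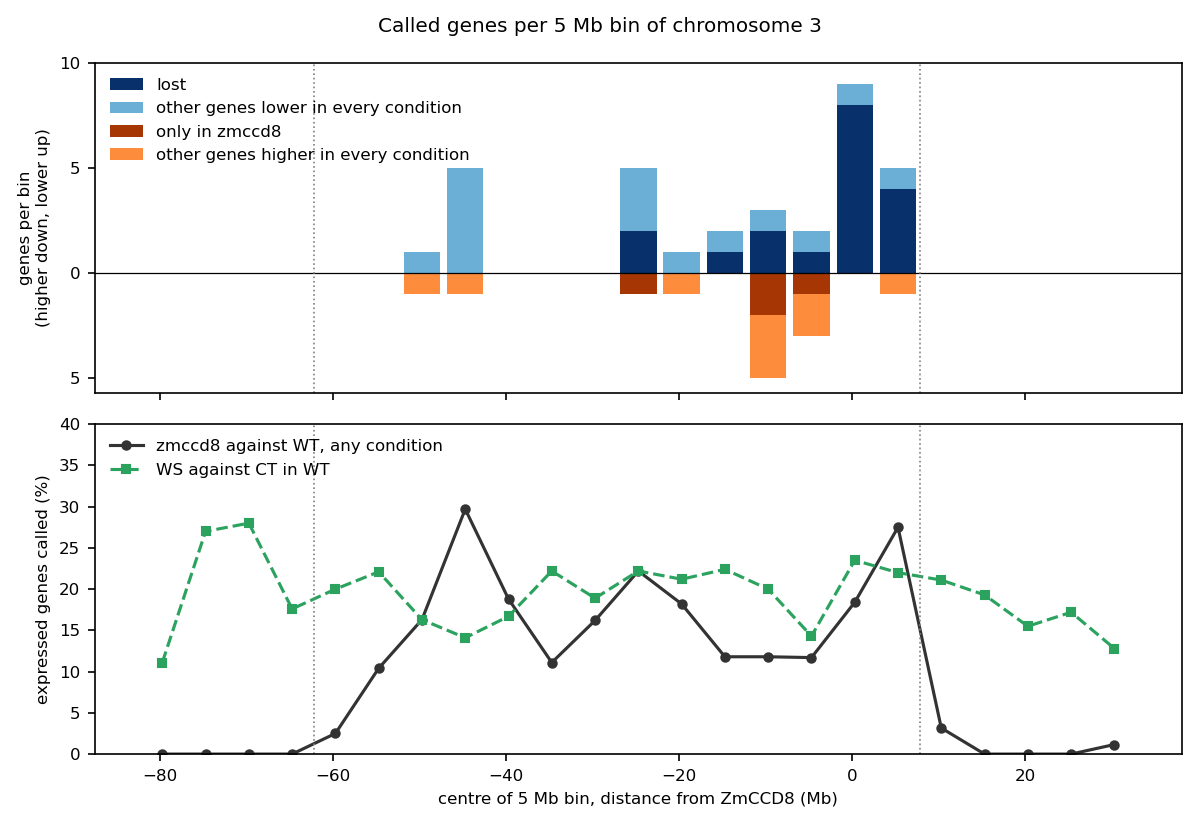
Upper panel, number of genes per 5 Mb bin that were lower (up) or higher (down) in *zmccd8* in every condition, with lost genes and genes present only in *zmccd8* in darker shades. Lower panel, percent of the expressed annotated genes of each bin called between genotypes in any condition (circles) or for WS against CT in WT (squares), with dotted lines at the ends of the segment. Genotype calls reach 29.7% inside the segment and 0% between 120 and 140 Mb, and the WS response runs on across both ends.

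Over some genes of the segment almost no reads were counted in the mutant, while WT had reads there. Reads of both genotypes were aligned to the B73 assembly, so a value counts reads placed on its gene models. Whether the transcripts themselves were absent was not tested. A gene is called lost here when it had less than 0.5 FPKM in all 9 *zmccd8* libraries and 1 FPKM or more in all 9 WT libraries, over the 3 conditions. Lost genes numbered 18 (0.124% of all features), each of them called lower in every condition, and no other annotated gene of the genome met this rule. Counting entries outside the annotated genes as well, 34 of the 27530 features met it. In the segment 469 single-transcript entries and 168 assembled transcripts were left out of the members. By the filter itself the 18 lost genes entered only through WT. Of their 162 values in *zmccd8* libraries 130 were 0, and 7 of the 18 were at 0 in all 9. Nearest to the limit were Zm00001eb154000, inside with at most 0.311 FPKM in *zmccd8*, and Zm00001eb142450, outside with 0.512. With a limit of 0.1 FPKM in place of 0.5 the count is 10.

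The lost genes were placed unevenly, with none below 175 Mb and 8 between 200 and 205 Mb, the bin that holds *ZmCCD8*. The first cluster lies 0.96 Mb below *ZmCCD8* on the plus strand and consists of Zm00001eb152760 (201214178 to 201215997), Zm00001eb152770 (201216067 to 201217351) and Zm00001eb152780 (201217389 to 201219198), none with a description. These 3 entries nearly touch end to start and have gene lengths of 390, 204 and 416 bases. Whether they are separate genes or pieces of 1 transcript was not tested, so the counts of lost genes are counts of entries. Zm00001eb152760 was at 0 in all 9 *zmccd8* libraries, and in WT libraries its lowest, median and highest values were 25.2, 72.3 and 125 FPKM. With a floor of 3 reads over the 9 *zmccd8* libraries it was at least 2840-fold lower in *zmccd8*. Zm00001eb152770 reached at most 0.134 FPKM in *zmccd8*, and in WT it lay at 37.2, 81.9 and 128. Zm00001eb152780 reached at most 0.278 FPKM in *zmccd8*, and in WT it lay at 50.7, 102 and 131. The same run goes on with Zm00001eb152790, annotated as La-related protein 6A, an RNA-binding protein, which was lower but present. It had 20.4 to 58.0 FPKM (median 38.3) in *zmccd8* and 62.6 to 134 FPKM (median 101) in WT, and the 4 genes span 10.5 kb.

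The second cluster lies 1.53 Mb above *ZmCCD8* on the minus strand, spans 30.0 kb and holds 4 lost genes next to each other. Of these, Zm00001eb153390 and Zm00001eb153400 also nearly touch, and whether they are separate genes was not tested. The closest protein to Zm00001eb153400 (203707406 to 203709444) is long chain acyl-CoA synthetase 9, an enzyme that activates fatty acids, but no domain is listed for the gene. Zm00001eb153400 had the highest WT level of all lost genes. It was at 0 in 7 *zmccd8* libraries and reached at most 0.252 FPKM there, against 90.2, 123 and 150 FPKM as lowest, median and highest value in WT. Zm00001eb153390 (203706116 to 203707342) was at 0 in all 9 *zmccd8* libraries, and in WT it lay at 38.1, 67.3 and 91.1 FPKM, at least 2330-fold lower in *zmccd8* by the same floor. Zm00001eb153410 (203710110 to 203711080) reached at most 0.133 FPKM in *zmccd8*, and in WT it lay at 14.2, 20.7 and 34.8. Zm00001eb153420 reached at most 0.201 FPKM in *zmccd8*, and in WT it lay at 9.43, 11.9 and 15.1. By the rule for lost genes no WT library can overlap with a *zmccd8* library in the lost genes of either cluster.

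Further genes were lost one by one. Zm00001eb154780 (208036484 to 208040053), annotated as cold-responsive protein kinase 1, a membrane-bound kinase of cold signalling in Arabidopsis, reached at most 0.187 FPKM in *zmccd8* and lay at 57.2, 92.9 and 134 FPKM in WT. Its 9 *zmccd8* libraries together held 33 reads of this gene and the 9 WT libraries 61465. Zm00001eb145820 (176802728 to 176805378), annotated as HOX10, a homeodomain-leucine zipper protein of the class that patterns vascular tissue, reached 0.0624 FPKM in 1 *zmccd8* library, was at 0 in the other 8, and lay at 3.34, 24.4 and 46.7 FPKM in WT. Zm00001eb146150 (178045973 to 178046317), with no description, was at 0 in all 9 *zmccd8* libraries and lay at 20.2, 28.0 and 45.2 FPKM in WT. Zm00001eb154000 (205428339 to 205450268), annotated as an anthocyanidin 5,3-O-glucosyltransferase, an enzyme that adds sugars to anthocyanin pigments, kept between 0.0865 and 0.311 FPKM in *zmccd8* and lay at 14.9, 21.2 and 27.4 FPKM in WT. For Zm00001eb154780, Zm00001eb145820 and Zm00001eb154000 the description names a closest protein but no domain, and the functions given are those of that protein. That the lowest WT library stands above the highest *zmccd8* library in each of these genes is set by the rule for lost genes.

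The remaining lost genes, which fall outside the rule for named genes apart from Zm00001eb154040 and are given to account for the whole class, were less abundant. Zm00001eb152470, annotated as nitrate reductase, the enzyme that turns nitrate into nitrite, was at 0 in all 9 *zmccd8* libraries and at 3.14, 4.08 and 5.43 FPKM in WT. Zm00001eb150430, annotated as calmodulin-binding transcription activator 2, lay at 6.83 to 16.0 FPKM in WT, and Zm00001eb152290, whose closest protein is a 26S proteasome subunit, at 3.51 to 8.02 FPKM. Zm00001eb154850, with a methyltransferase domain, lay at 4.51 to 15.3 FPKM in WT. Zm00001eb154040 (2.48 to 14.6 FPKM), Zm00001eb148810 (2.21 to 10.4 FPKM) and Zm00001eb150250 (1.09 to 3.07 FPKM) complete the list with their WT ranges. None of these 7 passed 0.178 FPKM in any *zmccd8* library. Of the 18 lost genes 50.0% have neither a protein match nor a domain, against 14.6% of all members, and their median gene length was 1089 bases, against 1878. Only 2 of the 18 overlap another entry on the same strand, against 257 of the 993 members. Entries that nearly touch, as in the clusters above, do not count as overlaps.

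**Figure D4:**
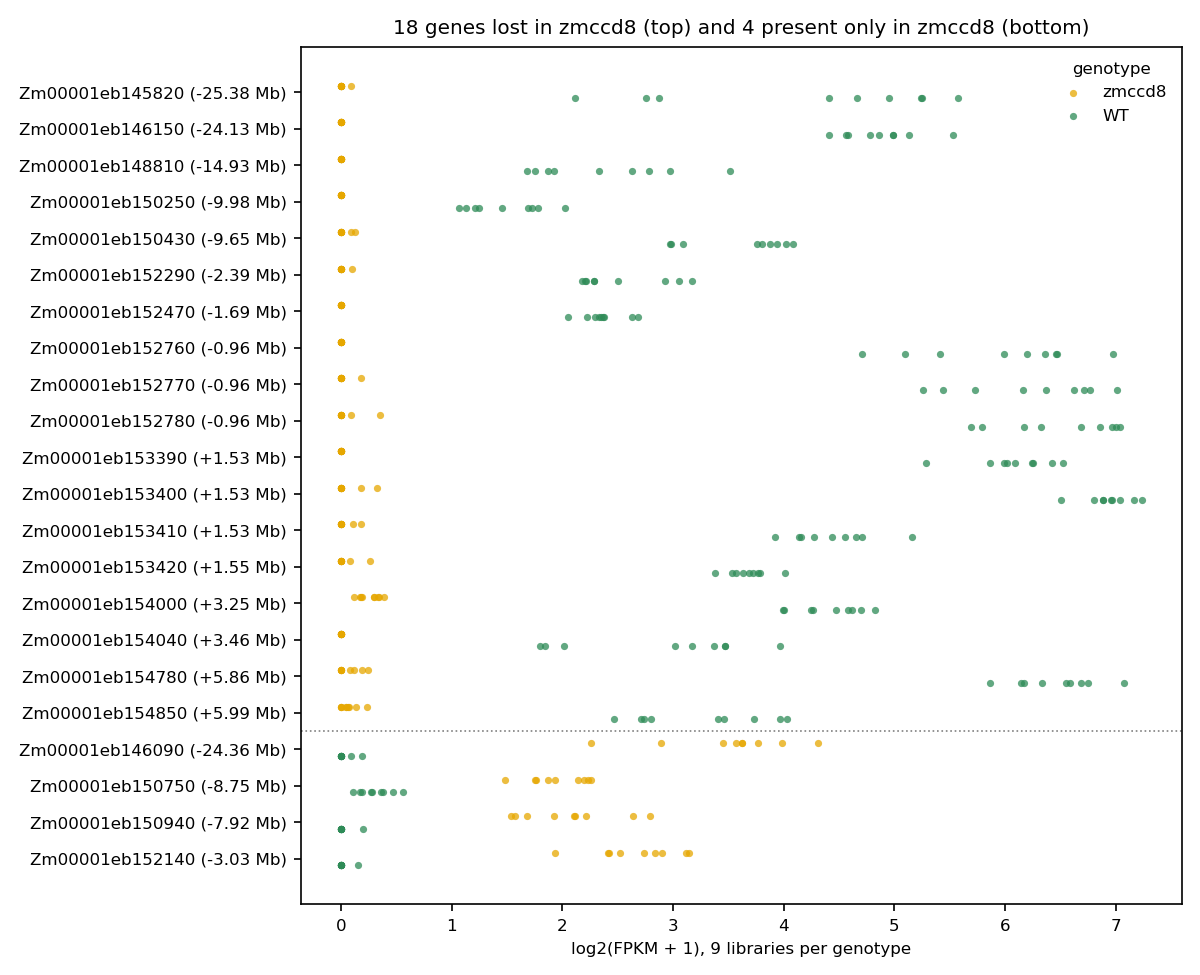
Log2(FPKM + 1) in each of the 9 *zmccd8* (yellow, upper row of each gene) and 9 WT (green, lower row) libraries for the 18 lost genes and, below the dotted line, the 4 genes present only in *zmccd8*, with the distance of each gene from *ZmCCD8*. The rule for the 2 classes itself keeps the genotypes apart in all 22 genes, and what the panel shows is the size of the gap.

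Of the other 15 members called lower in every condition, 12 had 1 FPKM or more in at least 3 *zmccd8* libraries, and 3 passed the filter only through WT. The largest mean difference was that of Zm00001eb147350, which has no description, at 3.5, 6.68 and 9.41 FPKM (lowest, median and highest) in *zmccd8* against 57.3, 73.2 and 89.8 FPKM in WT. Zm00001eb152110, also with no description, had 1.62, 3.42 and 11.9 FPKM in *zmccd8* and 13.7, 32.1 and 55.9 FPKM in WT. Zm00001eb141060, a probable glutathione S-transferase, which conjugates glutathione to reactive compounds, lay at 8.82, 16.3 and 28.7 FPKM in *zmccd8* and at 55.1, 88.6 and 135 FPKM in WT. Each of these genes had every *zmccd8* library below every WT library.

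Other members of this class are given by condition. Zm00001eb145870, an extradiol ring-cleavage dioxygenase, an enzyme that opens catechol-type rings, differed by a log2 value of −1.46 under CT (SE 0.14), −3.43 under 0N (SE 0.47) and −1.68 under WS (SE 0.11). Its 0N values were 10.2, 4.56 and 17.4 FPKM in *zmccd8* against 128, 154 and 71.1 FPKM in WT, and the call under 0N held in 3 of 6 fits that left a library out. The interaction of genotype with 0N had an adjusted p of 0.17 and that with WS of 0.799 (limma). Zm00001eb142030, subunit B-5 of nuclear factor Y, a CCAAT-binding transcription factor, differed by −1.50 under CT (SE 0.17), −2.86 under 0N (SE 0.25) and −1.49 under WS (SE 0.20), the last call being kept in 2 of 6 fits, and its interactions had adjusted p-values of 0.162 for 0N and 0.993 for WS (limma). A calmodulin gene, Zm00001eb150260, which encodes a calcium sensor, had 19.2, 25.0 and 35.9 FPKM in *zmccd8* and 55.7, 133 and 165 FPKM in WT. Neighbouring members called lower in every condition also included a heavy metal-associated isoprenylated protein with a ribosomal protein S18 gene (Zm00001eb142250 and Zm00001eb142300), and LAX PANICLE 2 with a prefoldin-like gene (Zm00001eb142450 and Zm00001eb142460), chosen after their values were seen.

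Genes present only in *zmccd8*, with 1 FPKM or more in its 9 libraries and less than 0.5 in all 9 WT libraries, numbered 4 (0.211% of all features). The class is not particular to the segment. It also held 1 of 1049 annotated genes on chromosome 3 below 140 Mb and 6 of 21296 on other chromosomes and scaffolds. Zm00001eb146090 (177818320 to 177819067), annotated as the alpha subunit of the signal recognition particle receptor, which brings ribosomes to the endoplasmic reticulum, had 3.80, 11.3 and 18.8 FPKM in *zmccd8* and at most 0.142 FPKM in WT, with 7 WT libraries at 0. Zm00001eb152140, with a domain of unknown function, had 2.81, 5.67 and 7.83 FPKM in *zmccd8* and at most 0.110 in WT. Zm00001eb150940, annotated as subunit 3 of the actin-nucleating ARP2/3 complex, had 1.90, 3.31 and 5.94 FPKM in *zmccd8* and at most 0.147 in WT. Zm00001eb150750, a probable disease resistance protein with an NB-ARC domain, had 1.80, 2.83 and 3.78 FPKM in *zmccd8* and 0.0803, 0.217 and 0.471 in WT, just inside the limit, and Zm00001eb154080 lay just outside with up to 0.715 FPKM in WT. With a limit of 0.1 FPKM none of the 4 would count.

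Higher in every condition, without meeting that rule, were 9 more members. Zm00001eb150350 (192375643 to 192379968), which has no description, had 29.3, 37.6 and 44.9 FPKM in *zmccd8* and 0, 0 and 1.04 FPKM as lowest, median and highest value in WT. Its highest WT value, in replicate 3 under CT, is what kept it out of the class above. Zm00001eb147380 (182426494 to 182431031), a homolog of BUD31, a splicing factor of the spliceosome, had 21.4, 27.9 and 30.8 FPKM in *zmccd8* and 0.521, 1.55 and 3.78 FPKM in WT. Zm00001eb141700, with a domain of subunit Y of the enzyme that starts GPI anchor synthesis, had 24.2, 33.3 and 38.3 FPKM in *zmccd8* and 1.99, 3.67 and 5.88 FPKM in WT. In all 3 genes the genotypes did not overlap in any condition.

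A subtilase, a metalloprotease and an amino acid permease were also in this group. Zm00001eb151510, an insulin-degrading enzyme-like metalloprotease of the peroxisome, had 36.2, 41.8 and 37.8 FPKM under CT, 105, 121 and 74.9 under 0N and 82.2, 70.8 and 56.3 under WS in *zmccd8*. In WT it had 14.3, 14.0 and 13.2 FPKM under CT, 23.4, 21.9 and 23.3 under 0N and 17.4, 17.7 and 13.6 under WS, so the genotypes were apart in each condition. Zm00001eb150950, the subtilisin-like protease SBT3.5, differed by 2.77 under CT (SE 0.34), 1.69 under 0N (SE 0.18) and 1.31 under WS (SE 0.20), and the call under WS was kept in 1 of 6 fits with 1 library left out. Zm00001eb141470, a homolog of the amino acid permease BAT1, differed by 1.47 under CT (SE 0.21), 1.14 under 0N (SE 0.20) and 1.56 under WS (SE 0.13), and its calls under CT and 0N were kept in 0 and 1 of 6 such fits. In 2 places higher genes were neighbours: Zm00001eb150940 lies beside Zm00001eb150950, and Zm00001eb152140 beside Zm00001eb152130.

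The treatment responses of the segment, which its choice did not use, are given beside those of the rest of the genome. Under 0N against CT, 66 members fell and 11 rose in *zmccd8* (5.63% and 1.74% of all features), and 26 fell and 37 rose in WT (2.82% and 1.94%). That is 7.75% of members in *zmccd8*, against 7.35% of annotated genes on other chromosomes, and 6.34% in WT, against 4.55%. Under WS against CT, 106 members fell and 73 rose in *zmccd8* (10.3% and 6.24% of all features), and 110 fell and 88 rose in WT (10.4% and 7.41%). That is 18.0% of members in *zmccd8*, against 16.2% on other chromosomes, and 19.9% in WT, against 17.6%. The median log2 difference over the members was between −0.02 and 0.03 in each of the 4 comparisons, and that over all features between −0.01 and 0.00. The 0N counts rested on single libraries. In *zmccd8* the 77 calls became 5, 22, 9 and 4 without 0N replicate 1, 0N replicate 2, CT replicate 1 and CT replicate 3, and in WT the 63 calls became 13, 35, 24 and 32 without 0N replicate 1, 2 or 3 and CT replicate 3.

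Under WS the genotypes responded alike in direction. Of the 179 members called in *zmccd8* and the 198 called in WT, 128 were called the same way in both and 0 in opposite ways, which is 71.5% of the *zmccd8* calls and 64.6% of the WT calls. Among the other annotated genes these shares were 77.0% and 71.5%. Of the 179 members called in *zmccd8*, 178 had the same sign in WT, and of the 198 called in WT, 187 had the same sign in *zmccd8*. Under 0N 21 members were called the same way in both and 0 in opposite ways, 27.3% of the *zmccd8* calls and 33.3% of the WT calls, against 25.8% and 41.8% among other annotated genes. Of the 77 members called in *zmccd8* 73 had the same sign in WT, and of the 63 called in WT 51 had the same sign in *zmccd8*.

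The 3 highest rises under WS were the same genes in both genotypes, and none of them was called between genotypes in any condition. Zm00001eb148420, a heat shock cognate 70 kDa protein, a chaperone of heat and drought responses, had 163, 193 and 153 FPKM under WS against 0.896, 0.509 and 0.626 under CT in *zmccd8*, and 107, 85.3 and 149 under WS against 1.00, 1.08 and 1.54 under CT in WT. Its log2 differences were 6.67 in *zmccd8* (SE 0.14, adjusted p = 1.52e-06) and 5.67 in WT (SE 0.22, adjusted p = 2.21e-05, limma). Zm00001eb150050, a pathogenesis-related thaumatin-like protein, rose to 231, 410 and 728 FPKM under WS against 6.99, 10.5 and 11.1 under CT in *zmccd8*, and to 605, 299 and 2340 under WS against 11.3, 8.2 and 7.69 under CT in WT. Zm00001eb154070, heat stress transcription factor C-1b, rose by 3.51 in *zmccd8* (adjusted p = 0.000237) and by 3.40 in WT (adjusted p = 2.32e-05, limma). All 3 had every WS library above every CT library in both genotypes.

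Among the genes that fell under WS, Zm00001eb153360, a coiled-coil domain protein 1.37 Mb above *ZmCCD8*, had 1.16, 1.21 and 1.46 FPKM under WS against 56.1, 89.9 and 66.6 under CT in *zmccd8*. In WT it had 1.19, 1.28 and 1.61 FPKM under WS against 73.8, 69.3 and 104 under CT. Zm00001eb154560, the transcription factor MYB87, fell by 4.09 in *zmccd8* (adjusted p = 8.67e-05) and by 4.13 in WT (adjusted p = 6.85e-05, limma). Zm00001eb142990, with a domain of unknown function, fell by 3.99 in *zmccd8* (adjusted p = 1.4e-05) and by 4.87 in WT (adjusted p = 0.000348). These calls were kept in 6 of 6 fits with 1 library left out in both genotypes.

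The largest falls under 0N were called in both genotypes. Zm00001eb143540, with a nuclease-like domain of unknown function, had 0.0460, 0.354 and 0.634 FPKM under 0N against 16.2, 12.7 and 14.5 under CT in *zmccd8*, and 2.36, 1.37 and 0.738 under 0N against 43.4, 47.2 and 42.4 under CT in WT. It was also called lower in *zmccd8* than in WT under CT, at −1.56 (SE 0.13). Zm00001eb144960, linoleate 9S-lipoxygenase 2, an enzyme that oxidises fatty acids to defence compounds, had 2.55, 1.72 and 3.95 FPKM under 0N against 152, 35.2 and 144 under CT in *zmccd8*, and 7.51, 17.6 and 8.18 under 0N against 50.4, 51.5 and 51.1 under CT in WT. The *zmccd8* call was kept in 3 of 6 fits and the WT call in 5 of 6. Zm00001eb141960, a putative glutaredoxin, fell by 3.11 in *zmccd8* (adjusted p = 0.0247) and by 2.84 in WT (adjusted p = 0.0345, limma), and these calls were kept in 3 and 1 of 6 fits.

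Among the rises under 0N, the highest in WT after *ZmCCD8* were those of a chitinase gene and Zm00001eb154790. Zm00001eb154790, annotated as alliin lyase, an enzyme that cleaves sulfur-containing amino acid derivatives, had 30.7, 34.6 and 47.1 FPKM under 0N against 64.3, 40.1 and 68.1 under CT in *zmccd8*, and 261, 257 and 200 under 0N against 59.5, 66.7 and 43.0 under CT in WT. The 0N values were above CT in WT and overlapped with CT in *zmccd8*. The rise in WT was 2.08 (SE 0.20, adjusted p = 0.00617, limma) and the difference in *zmccd8* −0.59 (adjusted p = 0.122), with an interaction of −2.67 (SE 0.34) at an adjusted p of 0.0824. Zm00001eb147140, an acidic endochitinase, rose by 2.35 in WT (adjusted p = 0.0232, kept in 2 of 6 fits), and in *zmccd8* the difference was 0.80 (adjusted p = 0.0578). In *zmccd8* the highest were Zm00001eb146780, an actin, at 1.41 (adjusted p = 0.0314), Zm00001eb151510, the insulin-degrading enzyme-like protease, at 1.33 (adjusted p = 0.019), and Zm00001eb139070, a wall-associated receptor kinase, at 1.21 (adjusted p = 0.0309). Their calls were kept in 2, 3 and 2 of 6 fits with 1 library left out.

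**Figure D5:**
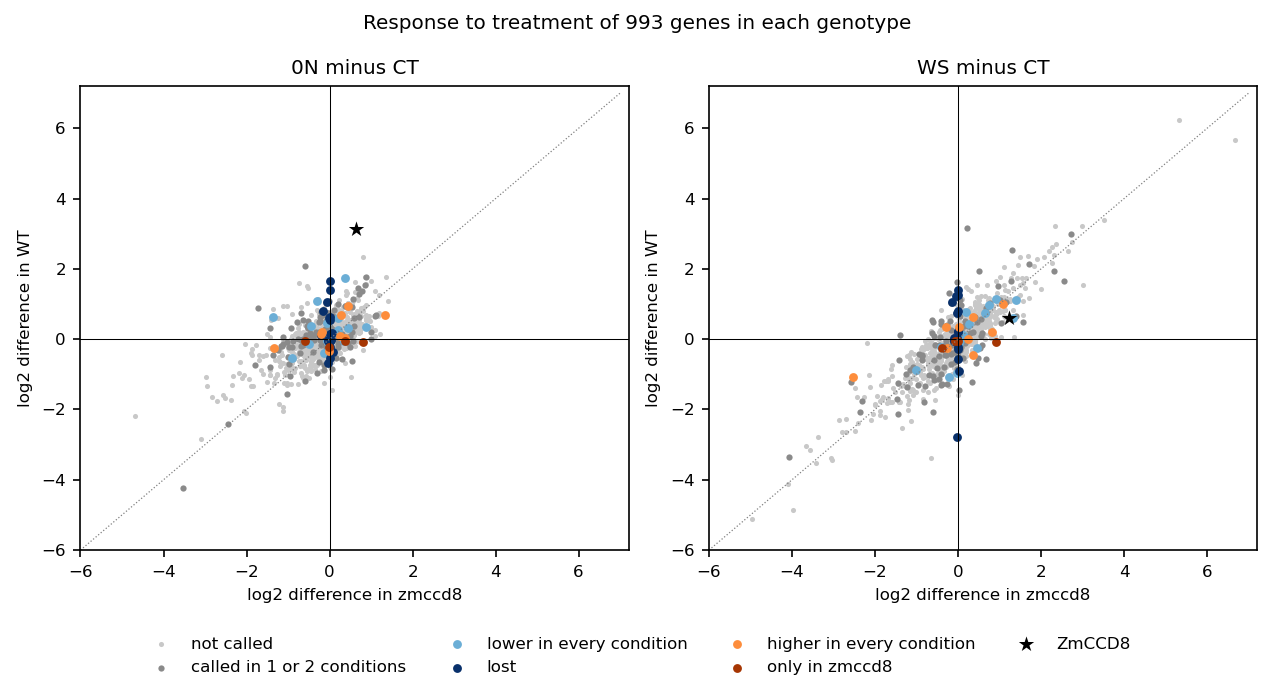
Log2 difference from CT under 0N (left) and WS (right) of the 993 genes in *zmccd8* (horizontal axes) and in WT (vertical axes), with the dotted line marking equal values. Under WS most genes lie along the line, whereas the 18 lost genes (dark blue) stand on or near the vertical line at 0 and have almost no signal in *zmccd8*.

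Of the 46 members called between genotypes in every condition, 24 were neither lost nor present only in *zmccd8*. By the filter 3 of the lower ones entered only through WT and 2 of the higher ones only through *zmccd8*. Where a gene has so little signal in 1 genotype, a treatment call there is hardly possible. Of these 24, 3 (12.5%) were called the same way in both genotypes for WS, beside 12.6% of the other annotated genes, and 0 for 0N, beside 1.9%. Zm00001eb152110 rose under WS, to 7.06, 10.8 and 11.9 FPKM against 3.01, 2.91 and 3.42 under CT in *zmccd8* and to 40.4, 55.9 and 32.1 against 21.8, 22.4 and 13.7 under CT in WT. Its log2 differences were 1.38 in *zmccd8* (adjusted p = 0.00238) and 1.1 in WT (adjusted p = 0.0169, limma). The permease gene Zm00001eb141470 rose by 1.08 in *zmccd8* (adjusted p = 0.000885) and by 1.00 in WT (adjusted p = 0.0121). The protease gene Zm00001eb150950 fell by 2.54 in *zmccd8* (adjusted p = 0.000657) and by 1.07 in WT (adjusted p = 0.0278). The WT calls of the 3 were kept in 3, 4 and 1 of 6 fits with 1 library left out, and the *zmccd8* calls in 6 of 6 each.

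Treatment responses of the lost genes could be seen in WT alone, since almost no reads were present in the mutant. Under 0N 2 of the 18 rose in WT, Zm00001eb152760 (1.40, adjusted p = 0.0378, kept in 0 of 6 fits with 1 library left out) and Zm00001eb154040 (1.65, adjusted p = 0.0138, limma). These are to be read beside 1.94% of all features that rose in WT under 0N, and 7.41% that rose and 10.4% that fell under WS. Under WS 4 rose, the cluster Zm00001eb152760 (1.27), Zm00001eb152770 (1.23) and Zm00001eb152780 (1.05), and Zm00001eb154040 (1.40), and 1 fell. Whether the entries of the cluster are separate genes was not tested. The gene that fell was Zm00001eb145820, the HOX10-like gene, at 6.32, 3.34 and 5.76 FPKM under WS against 37.1, 46.7 and 36.9 under CT in WT, a log2 difference of −2.78 (SE 0.22, adjusted p = 0.000348). In *zmccd8* it was at 0, 0 and 0 under WS against 0, 0 and 0.0624 under CT. None of the 18 was called in *zmccd8* under either treatment.

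The interaction of genotype with treatment called 0 members under 0N and 1 under WS. For 0N, 0.00% of all features were called in either direction, and for WS 0.0109% in each direction. At an unadjusted p under 0.05 there were 190 members for 0N and 144 for WS (19.1% and 14.5%), beside 17.5% and 7.94% of all features. An interaction is built from the same genotype differences that chose the segment, so nothing is read from these shares. A fit of all 18 libraries called 2 members for 0N and 5 for WS, and limma voom on the rebuilt reads called 0 for both. The single call was Zm00001eb145820, with 2.75 (SE 0.27, adjusted p = 0.00434, limma), a call that held in each of 12 fits that left a library out but not with a pseudocount of 0.1. As this gene had almost no reads in *zmccd8*, the value is in effect the fall in WT with its sign turned. Next in rank for WS were Zm00001eb150550, a cytochrome P450 98A1 of phenylpropanoid metabolism (−1.41, adjusted p = 0.081), and Zm00001eb152770 (−1.29, adjusted p = 0.0833). For 0N they were Zm00001eb154790, Zm00001eb154040 (−1.65, adjusted p = 0.128) and Zm00001eb150740, a DNA-3-methyladenine glycosylase of base excision repair (−1.42, adjusted p = 0.145). Zm00001eb152770 and Zm00001eb154040 are lost genes, so their values too are in effect the rise in WT with its sign turned.

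By words in their descriptions, 371 members fell into groups of known function. The 15 hormone genes had 1 call lower in *zmccd8* under 0N (*ZmCCD8*), and 1 higher (*ZmCCD8*) and 1 lower under WS. The lower one was the ethylene-responsive transcription factor ERF110 (Zm00001eb146650, −1.73), chosen after its values were seen. Under WS against CT 4 of the 15 rose and 0 fell in *zmccd8*, and 3 rose and 2 fell in WT, where over all members 7.35% rose and 10.7% fell in *zmccd8* and 8.86% rose and 11.1% fell in WT. A cytokinin dehydrogenase, which degrades cytokinins (Zm00001eb141570), rose in both, by 1.45 in *zmccd8* and 1.21 in WT. Their median log2 differences between genotypes were −0.11, −0.41 and −0.13 under CT, 0N and WS, beside −0.05, −0.16 and −0.08 over all members.

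The 6 nitrogen genes were the nitrate reductase described above and 5 members of the NRT1/PTR family, which carry nitrate, peptides or hormones across membranes. *ZmNPF8.2* (Zm00001eb144350) and *ZmNPF1.1* (Zm00001eb152400) are among 5 members that the study lists by name, with *ZmCCD8*, *HHT1* and *ROPGEF*, so they are no independent choice. *ZmNPF8.2* had 4.06, 9.32 and 4.29 FPKM under CT, 5.87, 9.38 and 7.68 under 0N and 4.17, 4.39 and 1.78 under WS in *zmccd8*. In WT it had 2.06, 1.97 and 0.841 FPKM under CT, 4.84, 5.0 and 7.2 under 0N and 0.936, 0.834 and 0.268 under WS. The *zmccd8* values lay above all WT values under CT and WS, and the gene was called in neither. *ZmNPF1.1* was near 0 except under WS, where it had 2.23, 3.32 and 2.54 FPKM in *zmccd8* and 0.607, 0.202 and 0.703 in WT. It was called higher in *zmccd8* there (1.302, SE 0.19), a call lost in each of the 6 fits that left a library out. Its rise under WS was 1.56 in *zmccd8* (SE 0.16, adjusted p = 0.000531) and the difference in WT 0.48 (adjusted p = 0.0552), with an interaction of 1.08 at an adjusted p of 0.274. Under 0N against CT 2 of the 6 rose in WT, *ZmNPF8.2* (1.37, kept in 0 of 6 fits) and the NPF6.3-like Zm00001eb153210 (1.76), and 0 were called in *zmccd8*. NPF6.3 is a nitrate transporter and sensor in Arabidopsis. Zm00001eb146390, similar to NPF5.10, fell under WS by 3.05 in *zmccd8* and 3.43 in WT. The last 2 genes were chosen after their values were seen.

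*HHT1* (Zm00001eb146710), an omega-hydroxypalmitate feruloyl transferase of suberin synthesis, had 33.4, 21.1 and 22.0 FPKM under CT, 18.0, 21.9 and 34.5 under 0N and 15.5, 13.5 and 19.0 under WS in *zmccd8*. In WT it had 28.2, 22.2 and 18.9 FPKM under CT, 36.4, 52.4 and 27.0 under 0N and 15.0, 18.8 and 12.1 under WS. The genotypes overlapped in every condition and no comparison called the gene. *ROPGEF* (Zm00001eb147940), an activator of Rop GTPases, switches of polar cell growth, had 2.36, 2.40 and 1.55 FPKM under CT, 1.24, 0.192 and 1.31 under 0N and 0.771, 0.771 and 1.15 under WS in *zmccd8*. In WT it had 3.30, 2.54 and 2.33 FPKM under CT, 1.3, 4.10 and 1.02 under 0N and 1.21, 1.00 and 0.973 under WS, with no call either.

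For the larger groups the counts are to be read beside those over all members, of which 5.74%, 9.57% and 5.94% were called lower and 2.52%, 2.62% and 2.62% higher in *zmccd8* under CT, 0N and WS. For WS against CT 7.35% of all members rose and 10.7% fell in *zmccd8*, and 8.86% rose and 11.1% fell in WT. Of 87 genes for transcription factors and chromatin, 6, 7 and 5 were called lower in *zmccd8* under CT, 0N and WS (6.9%, 8.05% and 5.75%) and 0 higher, and 13 rose and 11 fell under WS against CT in *zmccd8* and 11 rose and 9 fell in WT. The 82 genes grouped as kinases and receptors by words had 2 lower and 2 higher under CT, 2 and 1 under 0N and 1 and 1 under WS. The 1 higher under 0N and under WS was Zm00001eb146090, the signal recognition particle receptor subunit, which is no kinase. Of 52 genes of cell wall, lipid and secondary metabolism, 7 were lower and 3 higher under CT, 8 and 1 under 0N, and 7 and 0 under WS (13.5%, 15.4% and 13.5% lower), among them 3 lost genes. Under 0N against CT 10 of these 52 fell and 1 rose in *zmccd8*, and 3 fell and 4 rose in WT, where over all members 6.65% fell and 1.11% rose in *zmccd8* and 2.62% fell and 3.73% rose in WT. Of 51 genes of RNA and translation none was called for WS against CT in either genotype, at a median log2 difference of 0.08 in *zmccd8* and 0.12 in WT. Responses smaller than a log2 difference of 1 are not counted as calls. The 31 genes grouped as transporters by words, which include the GTPase activator *ROPGEF*, had 7 rising and 3 falling under WS in each genotype (22.6% and 9.68%). The 56 protein turnover genes had 4 rising and 10 falling in each (7.14% and 17.9%). The 145 genes with no description held 9 of the 18 lost genes.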

How the data were processed

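Strand-specific, paired-end libraries of poly(A) RNA from 18 root samples were trimmed and aligned to the Zm-B73-REFERENCE-NAM-5.0 assembly with HISAT2 version 2.0.5, and fragments were counted per gene with featureCounts by the authors, who deposited FPKM values, the unit used here. Every FPKM column was mapped to a sample. Fold changes and p-values of the authors' own comparisons were not used.

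The FPKM values came out as whole reads in 100.0% of cases within 0.01 reads. Median-of-ratios factors of the deposited values were 1.008 in all 18 libraries. The median-of-ratios alternative thus divided every library by the same factor and could not test the scaling between libraries. Features with an FPKM of 1 or more in at least 3 libraries were kept, transformed as log2(FPKM + 1), and fitted with limma 3.58.1 (trend option, R 4.3.3) on the 6 libraries of each comparison, or 12 for an interaction. The fold change on this scale understates that of low genes. P-values were two-sided and adjusted by Benjamini-Hochberg over all 27530 features. Genes were called at an adjusted p of 0.05 or less with an absolute log2 difference of 1 or more. Tables and figures were made with Python 3.11.15, and the fits were tested on simulated data.

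The members, the gene lists and the tests were chosen with earlier results of these data known. Named genes were taken by rank: *ZmCCD8* with its 5 nearest members on each side, the 10 most abundant lost genes and those present only in *zmccd8*, the 6 largest differences in each direction among genes called in every condition, genes of that kind called for a treatment in both genotypes, the 3 lowest p-values of each interaction, members listed in the study's tables, and the 3 highest and 3 lowest responses in each treatment comparison.

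Replicate numbers are shared by all groups. Deviations from the group means correlated above 0.1 for every number only for WS against CT in *zmccd8* (0.135, 0.224 and 0.253), and there the fit with the replicate block called 183 members, against 179 without it. Alternatives were another pseudocount, no filter, all 18 libraries in 1 fit, a replicate block, median-of-ratios scaling, calls by the adjusted p alone, voom with limma on rebuilt reads, other limits for absence, and each library left out. Rebuilt reads are not independent molecules, and precision is limited by 3 replicates per group.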

Additional observations from a re-analysis of the deposited data

Results flagged for a closer look

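The interaction of genotype with WS was called in 1 member, Zm00001eb145820. Its closest protein is HOX10, a homeodomain-leucine zipper protein, and no domain is listed for the gene. The interaction was 2.75 on the log2(FPKM + 1) scale (adjusted p = 0.00434, limma with Benjamini-Hochberg adjustment over all features). The gene was at 0 in 8 of the 9 *zmccd8* libraries, and in all 3 WT replicates its value under WS (6.32, 3.34 and 5.76 FPKM) lay below every value under CT (37.1, 46.7 and 36.9 FPKM). With 3 reads in all over the 9 *zmccd8* libraries no response could be measured in the mutant, so the value restates the fall in WT. The gene was not called with a pseudocount of 0.1 or with limma voom.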

How the results depend on the processing

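No call of a named gene changed direction under any alternative. Of 996 calls of named genes tried with 1 library left out 821 were kept, and of 163 calls 124 were kept with no filter, 146 with the replicate block, 161 with all 18 libraries in 1 fit, and 159 each with a pseudocount of 0.1 and with limma voom. With no filter the counts of called members under CT, 0N and WS between genotypes were 42, 71 and 45, against 82, 121 and 85, those for 0N were 10 in *zmccd8* and 29 in WT, against 77 and 63, and members called in every condition were 18 lower and 5 higher, against 33 and 13, all of them among those of the filtered fit. The replicate block gave 53 under CT, 38 under 0N, 29 for 0N in WT and 7 higher in every condition, and here samples shared only a number. By the adjusted p alone, members called for 0N were 170 in *zmccd8* and 112 in WT, and for WS 364 in *zmccd8* and 407 in WT. The interaction counts became 2 for 0N and 5 for WS with all 18 libraries, and 0 for WS with a pseudocount of 0.1 or with voom. With less than 0.1 FPKM as absent, 10 members were lost and 0 present only in *zmccd8*. With 1 library left out, counts ran from 43 to 56 under CT, from 55 to 142 under 0N and from 49 to 75 under WS. For 0N they ran from 4 to 100 in *zmccd8* and from 13 to 52 in WT, and for WS from 159 to 195 in *zmccd8* and from 176 to 197 in WT. The interactions ran from 0 to 9 for 0N (9 without *zmccd8* 0N replicate 3) and from 1 to 2 for WS, lower in every condition from 24 to 35, higher from 8 to 13 (8 without WT CT replicate 2 or WT 0N replicate 1), lost from 18 to 19 and present only in *zmccd8* from 4 to 5. The cause of these changes was not tested. In the fits with a library left out the group of 2 is assumed to vary like the group of 3.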
